A study of Mus musculus with 30 samples.

Results

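The genes described here were listed together as naive T cell and quiescence genes: Satb1, Lef1, Tcf7, Klf2, Myb and Actn1. The name is that of the list. Myb in particular is also linked to other T cell states, so a difference in it is not by itself one in naive state. They were followed through every probe set that names one of them alone on a mouse Affymetrix array (MG-U74Av2). This gave 9 of 12422 tested probe sets, covering 5 of the 6 listed genes. Actn1 had 3 probe sets, Lef1 and Myb had 2 each, and Satb1 and Klf2 had 1 each. No probe set names Tcf7 alone, so Tcf7 was not analysed here.

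The 30 arrays measured RNA from sorted CD4+ T cells of NOD mice that carry the BDC2.5 T cell receptor transgene, which directs most T cells at a pancreatic islet antigen. All groups share this strain and transgene, and there is no group without it. Pancreas set 1 held 3 arrays of regulatory T cells (Treg, CD4+CD25+CD69-) and 5 of effector T cells (Teff, CD4+CD25lo/-CD69+/-) from mice given rat IgG, with no age stated. Pancreas set 2 came from infiltrated pancreas. It held 3 arrays of Treg (CD4+CD25+) and 3 of Teff (CD4+CD25-) from mice of 26 days given anti-ICOS antibodies, which bind the costimulatory receptor ICOS. It also held 2 Treg arrays (CD4+CD25+CD69-) of IgG-treated mice, aged 4 weeks for replicate 1 and 26 days for replicate 2. The gates of the anti-ICOS and IgG Treg cells therefore differed. The lymph node set came from mice of 4 weeks with no treatment named. Mesenteric nodes gave 5 CD25+ and 3 CD25- arrays, and each sort of peripheral node cells gave 3. Here CD25 stands in for regulatory identity, and a CD25 gate can also admit activated conventional cells. The labels name no animals or pools, so p-values measure only the spread between these arrays, which may be technical, and the number of arrays limits the precision.

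Naive T cells are kept small, metabolically quiet and recirculating by a set of transcription factors that activation turns down. Lef1 and Tcf7 are paired HMG-box factors that bind the same DNA sequence and recruit beta-catenin or Groucho/TLE corepressors. Satb1 folds chromatin and is needed for T cell development in the thymus, Klf2 maintains quiescence and drives the egress receptor S1pr1, and Myb is best known in thymocytes and progenitors. Actn1 encodes alpha-actinin 1, which crosslinks actin filaments and ties them to integrins.

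The upstream sequence of 3 genes whose brightest probe set was lower in pancreatic Treg cells (Satb1, Myb and Actn1) is shown beside that of Klf2, which did not pass the test, so that the regions can be compared. Each run is the 250 bases before the gene's most upstream start in RefSeq, build GRCm38.p6, written 5′ to 3′ on the gene's own strand. Capitals mark matches to the KLF core CACCC or the MYB core AACTG on either strand, where a match on the other strand reads GGGTG or CAGTT.
Satb1 (chr17:51833291-51833540, minus strand): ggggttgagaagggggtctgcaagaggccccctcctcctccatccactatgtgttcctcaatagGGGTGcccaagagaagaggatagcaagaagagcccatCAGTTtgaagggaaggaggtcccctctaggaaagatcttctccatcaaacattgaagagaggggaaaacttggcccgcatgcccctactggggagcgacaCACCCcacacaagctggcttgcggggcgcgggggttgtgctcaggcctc
Myb (chr10:21160985-21161234, minus strand): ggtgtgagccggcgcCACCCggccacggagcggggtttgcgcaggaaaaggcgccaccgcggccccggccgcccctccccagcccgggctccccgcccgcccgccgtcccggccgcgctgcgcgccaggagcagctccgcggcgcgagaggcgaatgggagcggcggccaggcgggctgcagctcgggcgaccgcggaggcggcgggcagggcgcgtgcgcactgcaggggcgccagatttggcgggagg
Actn1 (chr12:80260364-80260613, minus strand): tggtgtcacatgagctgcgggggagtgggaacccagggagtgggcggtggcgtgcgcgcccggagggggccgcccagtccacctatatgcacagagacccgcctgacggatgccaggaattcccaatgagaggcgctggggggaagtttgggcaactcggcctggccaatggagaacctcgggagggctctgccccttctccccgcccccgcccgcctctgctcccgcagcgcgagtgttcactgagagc
Klf2 (chr8:72318812-72319061, plus strand): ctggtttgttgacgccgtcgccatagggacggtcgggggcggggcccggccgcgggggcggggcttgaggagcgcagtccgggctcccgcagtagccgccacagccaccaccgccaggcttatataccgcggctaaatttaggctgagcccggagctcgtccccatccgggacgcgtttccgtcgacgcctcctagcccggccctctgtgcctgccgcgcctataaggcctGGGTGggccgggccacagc
The Satb1 window held 2 matches to CACCC and 1 to AACTG, and the Myb and Klf2 windows held 1 match each to CACCC. The Actn1 window held neither core. None of these 4 windows held the TCF-LEF core CTTTGA or the other MYB core AACGG on either strand, and neither did that of Lef1, which held 3 matches to CACCC. Over 32851 windows of the same length, 52% held CACCC, 39.1% AACTG, 14.5% AACGG and 13.8% CTTTGA, so the matches are ordinary for mouse promoters and describe letters only. The windows were rich in G and C, with 58% in Satb1, 71.2% in Klf2, 68.4% in Actn1 and 81.2% in Myb.

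Several records need to be known before the values. The array labelled anti-ICOS Treg replicate 3 went against its label. Il2ra, the gene of CD25, stood 0.11 above the mean of the anti-ICOS Teff arrays there on the log2 scale, against 1.23 and 3.26 above it in replicates 1 and 2. Its summed intensity over 7 regulatory T cell markers was 486, while the anti-ICOS Teff arrays lay between 490 and 659. One physical array was listed both as IgG Treg replicate 3 of set 1 and as IgG Treg replicate 2 of set 2 (r = 0.997 between both records over all tested probe sets, where the next closest pancreatic array reached 0.988). The source name of mesenteric CD25+ replicate 2 says CD25-, but its Il2ra value of 5.50 lay among the other CD25+ arrays (5.34 to 6.23) and above the CD25- arrays (4.08 to 4.11). The tissue field of the peripheral arrays says mesenteric. Titles were followed in each case. Array numbers in the labels fell into 5 ranges, called runs A to E. T cell markers were bright in all sorts, with Cd3e between 7.86 and 9.05 on the log2 scale. Array medians spanned at most 0.0972 on that scale within a set. Levels were compared only within a set.

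The named genes were among the brighter ones on the array, by the probe set with the highest mean for each. Within each set, Satb1 99665_at stood at percentiles 91.9 to 96.2 of all tested probe sets, Actn1 104578_f_at at 96.0 to 98.7, Myb 92644_s_at at 89.7 to 98.0, Lef1 103628_at at 88.8 to 89.1 and Klf2 96109_at at 82.5 to 84.1. Myb 162411_f_at (percentiles 9.89 to 11.9) and Actn1 92280_at (23.7 to 27.8) were dim in all sets and passed no test in any comparison. Letters such as f, g, r and s in a probe set's name mark designs that did not meet all of the maker's rules for probe choice, so related transcripts may add to their signal.

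**Figure D1:**
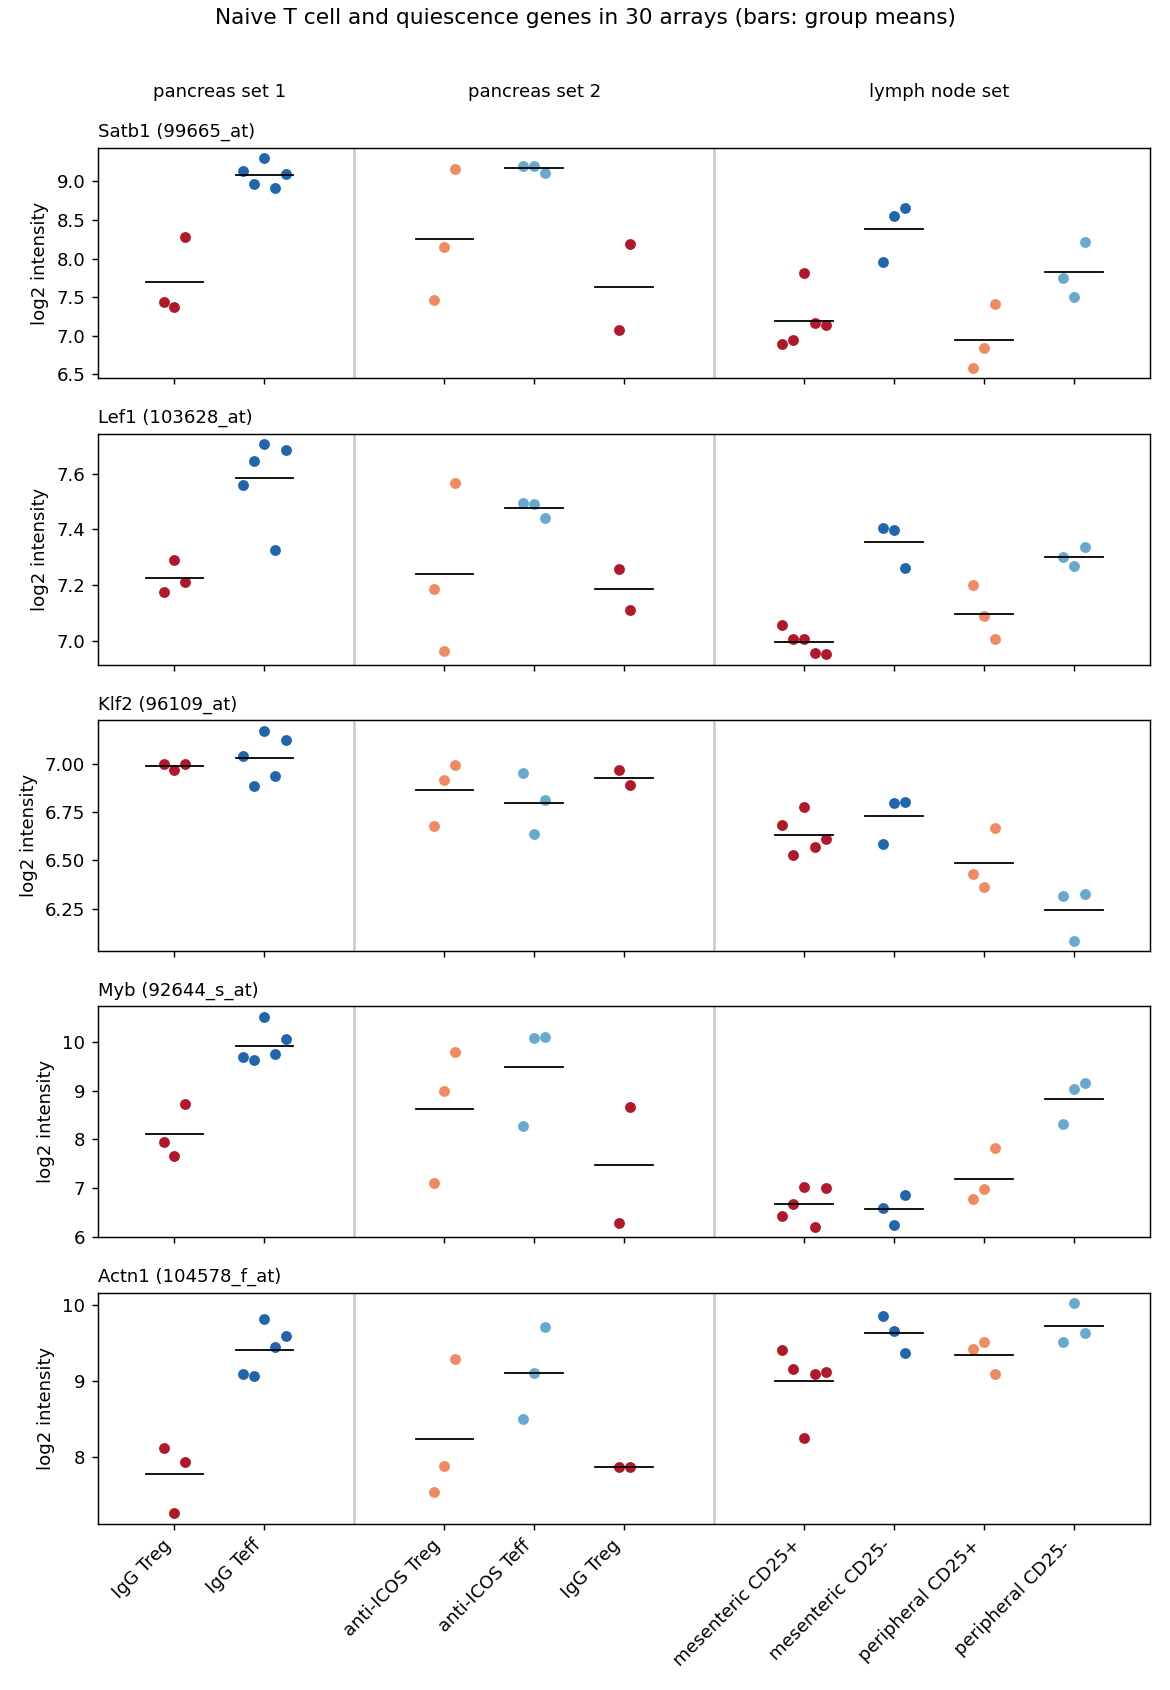
Each point is 1 of the 30 arrays, with log2 intensity on the vertical axis (each panel has its own scale) and groups along the horizontal axis, for the brightest probe set of each gene. Short bars are group means. Satb1, Myb and Actn1 separate Treg from Teff in pancreas set 1, Klf2 does not, and Myb is high in CD25- cells of peripheral but not mesenteric nodes.

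Pancreatic Treg cells of IgG-treated mice had less Satb1, Myb and Actn1 RNA than Teff cells. Klf2 did not pass the test. Of the 9 probe sets, 5 passed the test (limma, Benjamini-Hochberg adjusted p under 0.05 over 12422 probe sets), all 5 lower in Treg. Over the whole array 6.69% of probe sets passed in either direction and 2.76% passed as lower, and the median log2 difference was -0.72 over the 9 probe sets and 0.03 over all. The members were chosen with earlier results of these data known. Their count set against the array, here and in the later comparisons, is therefore no independent evidence.

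Satb1 stood at 7.44, 7.37 and 8.28 in the Treg arrays, against 9.14, 8.97, 9.30, 8.91 and 9.10 in the Teff arrays (log2 intensities). Every Treg value lay below every Teff value. The difference was -1.39 (SE 0.19, limma adjusted p = 0.00244), which is 2.62-fold lower in Treg. Within runs it was -1.62 in A, -1.93 in B and -0.73 in C.

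Myb stood at 7.94, 7.66 and 8.72 in Treg, against 9.68, 9.62, 10.51, 9.74 and 10.05 in Teff. The 2 groups were apart by 0.90. Myb fell by 1.81 on the log2 scale (SE 0.26, limma adjusted p = 0.00263), or 3.51-fold, with -1.71, -2.84 and -1.18 within runs A, B and C. In peripheral T cells this proto-oncogene of the MYB family is linked to survival and to memory and regulatory cell function.

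Actn1 104578_f_at stood at 8.12, 7.26 and 7.93 in Treg, against 9.09, 9.06, 9.82, 9.44 and 9.59 in Teff. The groups did not overlap, and the difference was -1.63 (SE 0.22, limma adjusted p = 0.00218), a 3.10-fold lower level in Treg. The dimmer Actn1 104579_r_at stood at 4.76, 4.76 and 4.69 in Treg, against 5.96 to 6.74 in Teff, and fell by 1.59 (SE 0.18, limma adjusted p = 0.000891). These 2 probe sets of the actin crosslinker gave nearly the same difference from different brightness. Both are annotated to the same source sequence, so they are not independent measures. The Treg values of 104579_r_at lay below the median probe set of those arrays (5.07 to 5.11). Within runs A, B and C the brighter one gave -0.96, -2.56 and -1.59.

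The 2 Lef1 probe sets were both lower in Treg, and 1 of them passed. Lef1 103629_g_at stood at 6.43, 6.40 and 6.06 in Treg, against 7.09, 7.01, 7.17, 6.72 and 7.10 in Teff, and fell by 0.72 (SE 0.13, limma adjusted p = 0.00846). Lef1 103628_at stood at 7.18, 7.29 and 7.21 in Treg, against 7.56, 7.64, 7.70, 7.33 and 7.68 in Teff, a difference of -0.36 (SE 0.10) that missed the threshold (limma adjusted p = 0.0682). Both probe sets had every Treg value under every Teff value. Without Teff replicate 4, the lowest Teff array for both, the second difference passed (adjusted p = 0.0255). It did not pass when any other array was left out (limma adjusted p up to 0.173) or with trend and robust settings (0.156). The mean of both probe sets fell by 0.54 (limma adjusted p = 0.014).

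Klf2 stood at 7.00, 6.97 and 7.00 in Treg, against 7.04, 6.89, 7.17, 6.94 and 7.12 in Teff. The Treg values lay inside the Teff range. The difference was -0.04, with a 95% interval from -0.24 to 0.16 (limma adjusted p = 0.861).

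Other measures moved with this contrast, and their part in it was not tested. The 3'/5' ratio of actin, which is higher in more degraded or truncated RNA, averaged 3.75 in Treg and 2.65 in Teff arrays on the log2 scale. With that ratio as a covariate, 1 of the 5 calls was kept (Actn1 104579_r_at, adjusted p = 0.0386), while Satb1 (-1.02, adjusted p = 0.202), Myb (-1.46, adjusted p = 0.202), Actn1 104578_f_at (-1.36, adjusted p = 0.173) and Lef1 103629_g_at (-0.97, adjusted p = 0.0601) missed the threshold, and over the array 86 probe sets passed in place of 831. The 3'/5' ratio of a second control, Gapdh, was 3.51 to 4.09 in Treg and 3.35 to 3.72 in Teff arrays. Those ranges overlapped, and the Gapdh ratio was not used as a covariate. Of 8 measured B cell markers, 3 rose (Cd79b, Blk and Ighm), and the summed intensity of the 8 was 699 to 881 in Treg and 489 to 555 in Teff. Of 5 measured CD8 and NK cell markers, 1 fell (Eomes), with sums of 157 to 183 in Treg and 214 to 290 in Teff. None of 4 erythroid and platelet markers passed, with sums of 2453 to 3037 in Treg and 618 to 2380 in Teff. In sorted bulk samples, fewer cells of a type and less RNA per cell cannot be told apart.

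**Figure D2:**
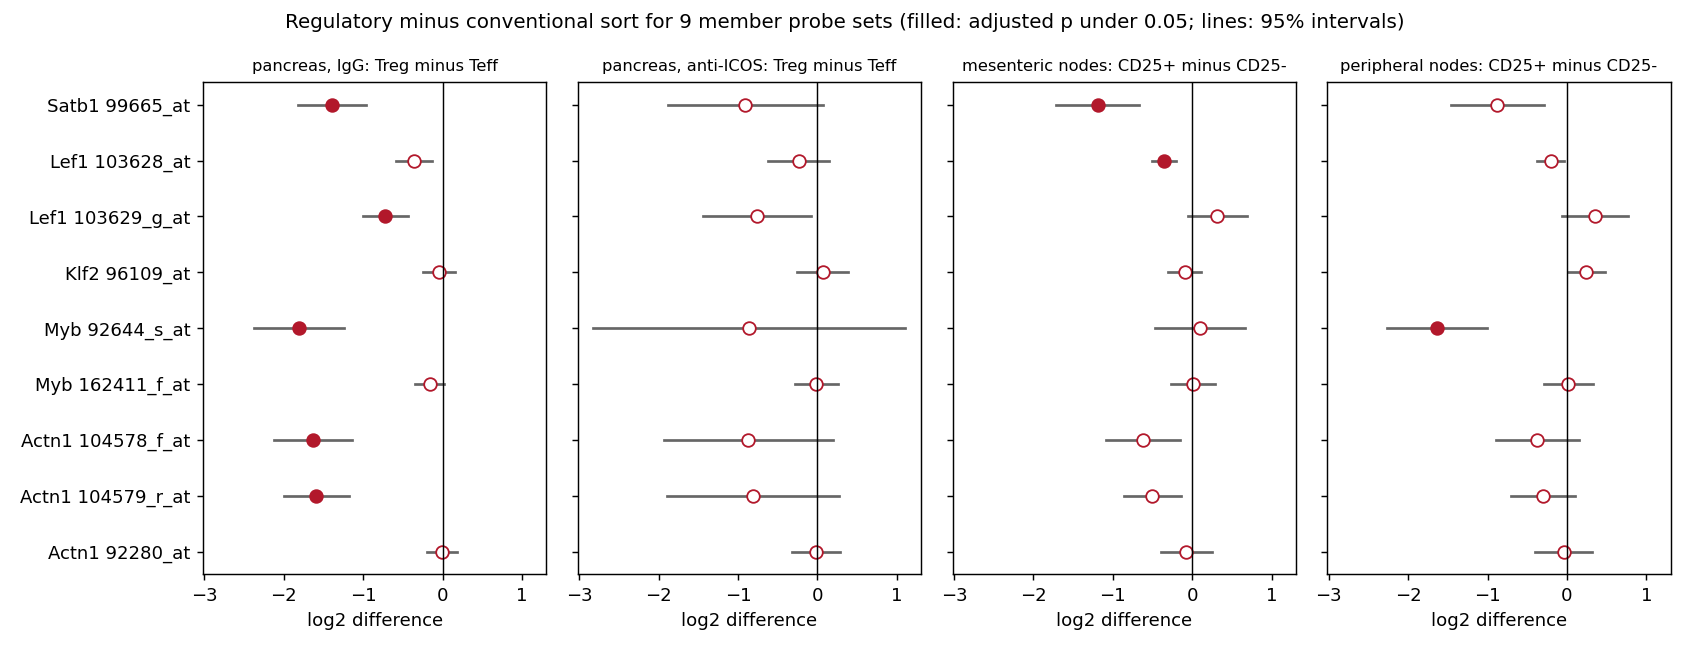
Each row is a probe set and each panel a comparison of Treg or CD25+ cells with Teff or CD25- cells. The horizontal axis is the log2 difference, lines are 95% intervals, and filled points passed the adjusted test. In IgG-treated pancreas 5 probe sets passed, in mesenteric nodes 2 (Satb1 and Lef1 103628_at), in peripheral nodes 1 (Myb), and in anti-ICOS pancreas 0.

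Genes around these factors were read from lists for the same contrast, where 6.69% of all probe sets passed and 2.76% passed as lower. Of 11 measured other naive T cell genes, 6 fell and 0 rose, with a median difference of -1.38. They were Pou2af1, a transcriptional coactivator (-2.63), Tdrp (-2.55), the membrane protein Itm2a (-2.16), the vesicle protein Nsg2 (-1.95), the BMP signal transducer Smad1 (-1.94) and the costimulatory receptor Cd28 (-1.38). All gene lists read here were drawn up with earlier results of these data known, so none is independent evidence of a direction. Of 13 measured genes of activated and effector T cells, 5 rose and 0 fell. They were the calcium-binding S100a6 (3.19) and S100a4 (2.01), the galectin Lgals1 (3.15), the repressor Prdm1, known as Blimp-1 (1.85), and the AP-1 factor Batf (0.66).

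The other lists were read in the same way, against the same share of 6.69% over the array. In lists this short, 1 or 2 calls are not read as a trait of the list. Of 25 measured quiescence regulators, 3 fell and 1 rose, with a median of 0.01. The forkhead factor Foxp1 (-0.90) and the antiproliferative genes Btg1 (-0.68) and Btg2 (-0.66) fell, and the cyclin-dependent kinase inhibitor Cdkn2c (0.38) rose. Of 10 measured genes of the FOXO1-KLF2 homing and survival program, 2 fell, the node-homing receptor Ccr7 (-0.77) and the chemokine receptor Cxcr4 (-0.51), while S1pr1 did not pass. None of 19 TCF-LEF partners and beta-catenin pathway genes passed (median -0.07). Among 15 relatives of the members, Klf3 (-0.90) fell and Klf10 (0.80) rose. Of 8 actinin partners at adhesion sites, the integrin chain Itgb1 (0.50) rose, opposite in sign to Actn1.

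Under anti-ICOS treatment no member gene passed between pancreatic Treg and Teff cells, and no probe set on the array did (0% called in limma, with 209 at an unadjusted p under 0.05). Satb1 stood at 7.46, 8.15 and 9.16 in Treg, against 9.20, 9.20 and 9.11 in Teff. Myb stood at 7.11, 8.99 and 9.79 in Treg, against 8.27, 10.09 and 10.11 in Teff. Actn1 104578_f_at stood at 7.54, 7.87 and 9.29 in Treg, against 8.50, 9.10 and 9.71 in Teff. In each of these genes the highest Treg value came from the array labelled replicate 3, whose regulatory markers were at Teff level.

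The differences over all 3 Treg arrays were -0.91 for Satb1 (SE 0.43), -0.86 for Myb (SE 0.85), -0.87 for Actn1 104578_f_at (SE 0.46) and -0.76 for Lef1 103629_g_at (SE 0.30), each with a limma adjusted p of 1.00. With the replicate number as a block, which treats arrays of equal number as pairs, the differences were the same. The SE was then 0.34 for Satb1, 0.20 for Myb and 0.19 for Actn1 104578_f_at (limma adjusted p = 0.794, 0.741 and 0.741), so none passed. No label says that equal numbers mark pairs. Matched by number alone, Myb and Actn1 104578_f_at were lower in Treg in 3 of 3 pairs, and Satb1 was not in the pair of replicate 3. The Treg array of that last pair had regulatory markers at Teff level, so it is no clear comparison of Treg with Teff. Without replicate 3 the differences were -1.36 (SE 0.34) for Satb1, -1.44 (SE 0.88) for Myb, -1.40 (SE 0.33) for Actn1 104578_f_at and -1.15 (SE 0.14) for Lef1 103629_g_at. Still 0 of the 9 passed (lowest limma adjusted p 0.0564, for Lef1 103629_g_at), while 12 probe sets passed over the array. For Klf2 the Treg arrays gave 6.68, 6.92 and 7.00 and the Teff arrays 6.95, 6.64 and 6.81, with a difference of 0.06 (95% interval -0.26 to 0.39).

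Each Treg array of set 2 was also set against the mean of the Teff arrays. The array labelled anti-ICOS Treg replicate 3 differed from that mean by -0.0033 in Satb1, 0.30 in Myb and 0.19 in Actn1, and by -0.0046 in the checkpoint receptor Ctla4. Replicates 1 and 2 differed by -1.71 and -1.02 in Satb1, and by 3.59 and 4.24 in the lectin-like receptor Klrg1. Myb was the least even, at -2.38 and -0.49 in these arrays and -3.19 and -0.83 in the 2 IgG Treg arrays. The actin 3'/5' ratio in the same order was 4.06 and 2.45, then 4.16 and 2.93, and it was 2.16 to 2.41 in Teff. With that ratio as a covariate the anti-ICOS Treg minus Teff differences were 0.42 for Myb, -0.32 for Satb1 and -0.55 for Actn1 104578_f_at. Its part was not tested otherwise. The Gapdh 3'/5' ratio was 4.01 and 3.18 in anti-ICOS Treg replicates 1 and 2, 4.13 and 3.86 in the 2 IgG Treg arrays, and 3.14 to 3.32 in Teff.

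**Figure D3:**
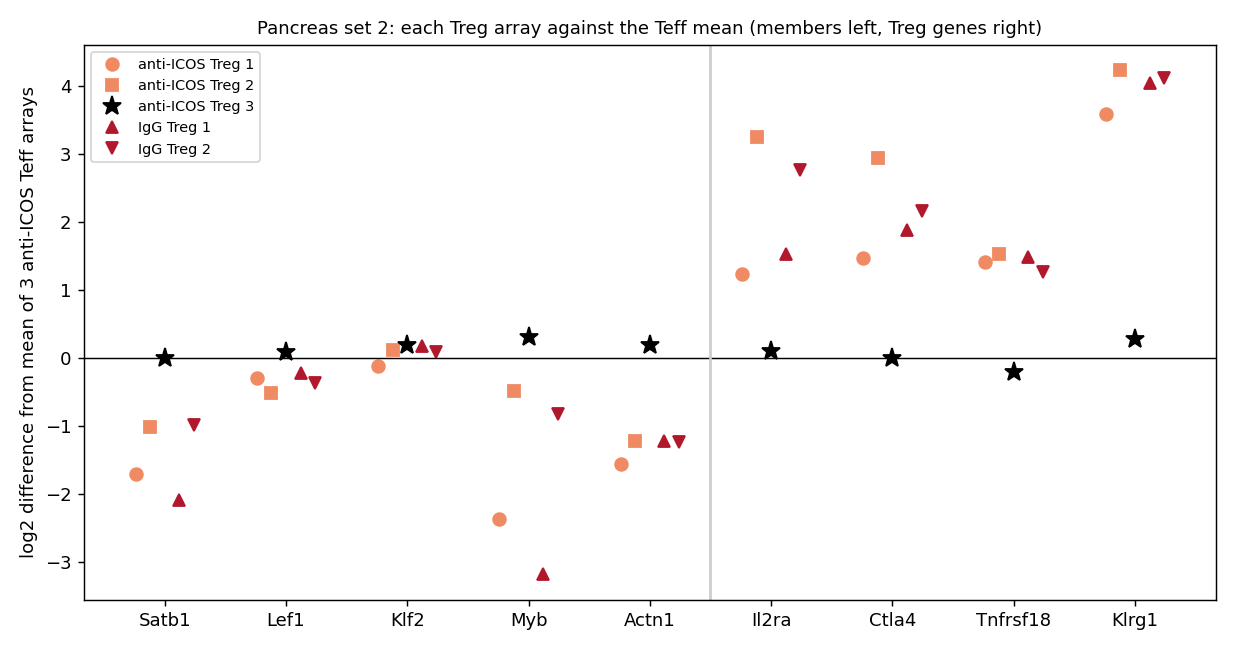
Each marker is a Treg array of pancreas set 2, and the vertical axis is its log2 difference from the mean of 3 anti-ICOS Teff arrays, for 5 members and 4 genes of regulatory cells. The star, the array labelled anti-ICOS Treg replicate 3, lies between -0.21 and 0.30 for all 9 genes, while in the other 4 arrays Satb1 and Actn1 lie at -0.99 or below and the 4 regulatory genes at 1.23 or above.

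Between anti-ICOS and IgG Treg cells of set 2, none of the 9 probe sets passed, and neither did any probe set on the array (0% called in limma, with 425 at an unadjusted p under 0.05). Satb1 stood at 7.46, 8.15 and 9.16 under anti-ICOS, against 7.07 and 8.18 under IgG, a difference of 0.63 (95% interval -0.46 to 1.73). Myb stood at 7.11, 8.99 and 9.79 under anti-ICOS, against 6.30 and 8.66 under IgG, a difference of 1.15 (interval -1.04 to 3.35). Without the array labelled anti-ICOS replicate 3 the differences were 0.18 for Satb1, 0.57 for Myb and -0.16 for Actn1 104578_f_at, where all 3 arrays gave 0.36. The gates and, for 1 array, the age differed between these groups. Erythroid and platelet marker sums were 193 to 2532 under anti-ICOS and 3052 to 10312 under IgG, and their part was not tested.

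In mesenteric nodes CD25+ cells had less Satb1 RNA than CD25- cells. The Lef1 probe sets disagreed, with 103628_at lower and 103629_g_at not past the test, and Myb did not pass. Of the 9 probe sets, 2 passed, both lower in CD25+, where 12.2% of all probe sets passed and 7.53% passed as lower, so the count is not far from that background. The median was -0.10 over the 9 and 0.04 over all.

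Satb1 stood at 6.89, 6.94, 7.82, 7.17 and 7.15 in mesenteric CD25+ arrays, against 7.96, 8.55 and 8.65 in CD25- arrays. The groups did not overlap, and Satb1 fell by 1.19 (SE 0.24, limma adjusted p = 0.00602), or 2.29-fold, with -1.33 and -1.28 within runs D and E. Lef1 103628_at stood at 7.06, 7.01, 7.01, 6.96 and 6.95 in CD25+, against 7.40, 7.40 and 7.26 in CD25-. It fell by 0.36 (SE 0.07, limma adjusted p = 0.00519), a 1.28-fold difference. The other Lef1 probe set went the other way, at 5.90 to 6.56 in CD25+ and 5.64 to 6.22 in CD25-, with a difference of 0.32 that did not pass (adjusted p = 0.294). The mean of both Lef1 probe sets gave -0.02 (adjusted p = 0.925), so the Lef1 call rests on 1 probe set.

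Actn1 104578_f_at stood at 9.41, 9.16, 8.25, 9.08 and 9.11 in mesenteric CD25+, against 9.85, 9.65 and 9.36 in CD25-. Replicate 3 lay 0.83 below the next CD25+ array. The difference was -0.62 (SE 0.22, limma adjusted p = 0.084), and the 104579_r_at probe set gave -0.50 (adjusted p = 0.0677), so neither passed. Without CD25+ replicate 1 both passed (adjusted p = 0.0487 and 0.0273). Neither passed when any other array was left out (limma adjusted p up to 0.301 and 0.274). Klf2 averaged 6.63 ± 0.10 in CD25+ (SD, n = 5) and 6.73 ± 0.12 in CD25- (SD, n = 3), with a difference of -0.10 (95% interval -0.31 to 0.11). Myb averaged 6.67 ± 0.35 in CD25+ (SD, n = 5) and 6.57 ± 0.31 in CD25- (SD, n = 3), a difference of 0.09 (interval -0.47 to 0.66).

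In peripheral nodes CD25+ cells had less Myb RNA than CD25- cells. Myb 92644_s_at was the 1 probe set of 9 that passed, where 7.69% of all probe sets passed and 5.89% passed as lower, so the count is near that background. Myb stood at 6.79, 6.98 and 7.82 in CD25+ arrays, against 8.32, 9.02 and 9.16 in CD25- arrays. It fell by 1.64 (SE 0.29, limma adjusted p = 0.00392), or 3.11-fold, with -1.85 and -1.21 within runs D and E. The actin 3'/5' ratio was 2.76 to 3.30 in CD25+ and 2.32 to 2.70 in CD25-, and with it as a covariate the Myb difference was -1.38 and the call was lost (adjusted p = 0.119). The part of that ratio was not tested otherwise. For Gapdh the 3'/5' ratio was 3.26 to 3.57 in CD25+ and 3.20 to 3.87 in CD25-. Those ranges overlapped, and it was not used as a covariate.

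Satb1 stood at 6.58, 6.85 and 7.41 in peripheral CD25+ arrays, against 7.74, 7.51 and 8.22 in CD25- arrays. Its difference of -0.88 (SE 0.27) missed the threshold (limma adjusted p = 0.0683), and within runs it was -1.26 in D and -0.10 in E. Satb1 passed with the run as a block (adjusted p = 0.0469), without peripheral CD25+ replicate 3 or without mesenteric CD25+ replicate 3 (the lowest adjusted p of these was 0.0365). It did not pass with quantile normalization (limma adjusted p = 0.108) or with trend and robust settings (0.0698). Leaving out 1 array gave adjusted p up to 0.232. Klf2 stood at 6.43, 6.36 and 6.67 in CD25+, against 6.32, 6.08 and 6.32 in CD25-, a difference of 0.24 that did not pass (adjusted p = 0.218). Lef1 again gave opposite signs, -0.20 for 103628_at and 0.35 for 103629_g_at, neither past the test.

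The lists were also read in the nodes, where 12.2% of all probe sets passed in mesenteric and 7.69% in peripheral comparisons. Counts such as 1 of 10, 1 of 15 or 1 of 25 are near or under those shares. Of 19 TCF-LEF partners and beta-catenin pathway genes, 5 fell in mesenteric CD25+ cells and 3 in peripheral ones, and 0 rose. Ctnnb1, which encodes beta-catenin, differed by -2.26 in mesenteric and -2.20 in peripheral nodes (limma adjusted p = 0.00153 and 0.00474). The Wnt coreceptor Lrp6 gave -0.96 and -1.16, and the corepressor Tle4 gave -0.40 and -0.58. The kinase Csnk1a1 (-0.79) and Apc (-0.30), both of the complex that destroys beta-catenin, passed in mesenteric nodes. The medians of the list were -0.04 and -0.10.

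Quiescence regulators gave 4 lower and 2 higher of 25 in mesenteric CD25+ cells, with Rbl1, a retinoblastoma relative, at -1.40, the Schlafen gene Slfn1 at -1.19, Btg2 at -0.46 and the mTOR inhibitor Tsc1 at -0.33, against Klf4 at 1.08 and the repressor Gfi1 at 0.60. In peripheral nodes 1 of 25 passed, Ets2 (-0.56). Of the members' relatives, 5 of 15 rose in mesenteric CD25+ cells: Klf3 (2.14), Klf4, Klf6 (0.47), Klf9 (0.46) and the actinin Actn4 (0.93), and Klf13 (-0.45) fell. In peripheral nodes Klf6 (0.77) was the 1 of 15 that passed. S1pr1, the Klf2 target that guides egress, fell in mesenteric CD25+ cells (-0.51) as 1 of 10 homing genes, and none of them passed in peripheral nodes. Among 8 actinin partners, the actinin-binding Pdlim1 fell at both sites (-0.47 and -0.43) and Itgb1 rose in mesenteric nodes (0.90).

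Other naive T cell genes gave 6 lower and 1 higher of 11 in mesenteric and 5 lower and 0 higher in peripheral CD25+ cells. In mesenteric and peripheral nodes Tdrp gave -2.98 and -2.46, Itm2a -1.44 and -1.81, Nsg2 -1.43 and -1.53, Smad1 -1.26 and -1.53, and Pou2af1 -0.75 and -1.74. In mesenteric nodes Igfbp4 (-0.34) also fell, and Id3 (0.93), an inhibitor of E proteins, rose. Of 13 activated and effector genes, 6 rose in mesenteric CD25+ cells: S100a6 (2.99), Lgals1 (2.36), S100a4 (2.00), Id2 (1.90), Nr4a1 (0.90) and the cytokine receptor chain Il2rb (0.31). In peripheral ones S100a6 (3.26), Lgals1 (2.89), S100a4 (1.57) and Id2 (1.22) rose, and the activation factor Irf4 (-1.46) fell. The lymph node fits share 1 estimate of the spread, and medians of these lists were -0.34 and -0.19 for the naive genes and 0.37 and 0.36 for the effector genes. Both lists were drawn up with earlier results of these data known, so neither is independent evidence of a direction. Markers of other cells moved with these sorts too. In mesenteric CD25+ cells 2 of 8 B cell markers rose (Cd79b and Blk), with sums of 579 to 720 in CD25+ and 497 to 562 in CD25- arrays. Of 5 CD8 and NK cell markers 1 fell there (Klrd1), with sums of 78.7 to 83.2 in CD25+ and up to 97.6 in CD25- arrays, which did not overlap. Of 7 thymocyte and progenitor markers 2 passed, in opposite directions (Dntt and Kit), with sums of 335 to 408 in CD25+ and 354 to 371 in CD25- arrays. In peripheral CD25+ cells 2 of 5 CD8 and NK cell markers fell (Klrd1 and Eomes), with sums of 77.9 to 90.2 in CD25+ and 111 to 152 in CD25- arrays. Their part in the results was not tested.

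Between the sites, Myb set CD25- cells apart. In CD25- cells Myb stood at 6.60, 6.25 and 6.87 in mesenteric arrays, against 8.32, 9.02 and 9.16 in peripheral arrays, with 1.45 between the nearest values. The difference was -2.26 on the log2 scale (SE 0.29, limma adjusted p = 0.00195), which is 4.79-fold lower in mesenteric nodes, with -2.31 within run D and -2.15 within run E. Leaving out any 1 array of the set gave -2.52 to -2.10, with adjusted p from 0.000842 to 0.0215. It was the 1 of 9 probe sets that passed, where 0.451% of all probe sets passed and 0.242% passed as lower. With members chosen after earlier results of these data, that count is no independent evidence.

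Klf2 went the other way in the same cells. It stood at 6.59, 6.80 and 6.81 in mesenteric CD25- arrays, against 6.32, 6.08 and 6.32 in peripheral CD25- arrays. The difference of 0.49 (SE 0.11) did not pass (limma adjusted p = 0.104). Satb1 gave 0.56 (SE 0.27) and Actn1 104578_f_at -0.10 (SE 0.24), and both overlapped between the sites. In the homing, TCF-LEF, family and other naive T cell lists no gene passed between the sites in CD25- cells. Of 13 effector genes, the activation factors Irf4 (-1.61) and Nr4a1 (-1.16, known as Nur77 and induced by receptor signals) passed as lower in mesenteric cells. Gfi1 (-0.91), of 25 quiescence regulators, and Itgb1 (-1.05), of 8 actinin partners, were also lower in mesenteric CD25- cells. Of 5 CD8 and NK cell markers, Eomes was lower there too, with sums of at most 97.6 in mesenteric and at least 111 in peripheral CD25- arrays, and of 7 regulatory markers Ctla4 was lower, with sums of 309 to 362 in mesenteric and 399 to 517 in peripheral CD25- arrays. Their part in the Myb difference was not tested.

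**Figure D4:**
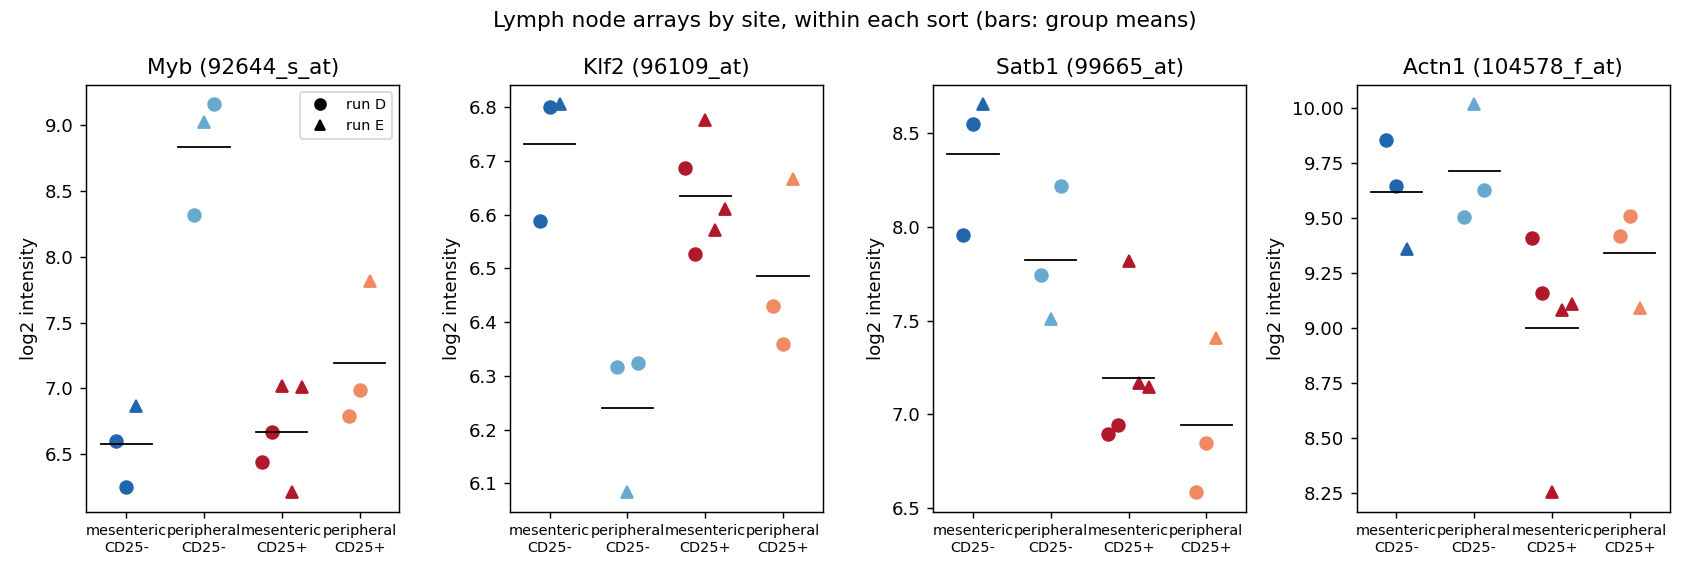
Each point is a lymph node array, with log2 intensity on the vertical axis, circles for run D and triangles for run E, and bars for group means. In CD25- cells every mesenteric Myb value (6.25 to 6.87) lies below every peripheral one (8.32 to 9.16) in both runs, and every mesenteric Klf2 value lies above every peripheral one.

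In CD25+ cells no member passed between the sites. Myb stood at 6.44, 6.67, 7.02, 6.21 and 7.01 in mesenteric arrays, against 6.79, 6.98 and 7.82 in peripheral arrays, a difference of -0.53 (95% interval -1.09 to 0.04, limma adjusted p = 0.972). None of the 9 passed, where 0.0725% of the array did. The difference between the sort contrasts was then tested itself. For Myb it was 1.73 (SE 0.40, limma adjusted p = 0.461), so it did not pass. None of the 9 passed that test, where 0.00805% of all probe sets did (1 probe set).

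The order of the levels in the nodes differed between genes. Satb1 was highest in mesenteric CD25- cells (8.39 ± 0.38, SD, n = 3), then in peripheral CD25- (7.82 ± 0.36, n = 3), mesenteric CD25+ (7.19 ± 0.37, n = 5) and peripheral CD25+ cells (6.95 ± 0.42, n = 3), and each neighbour in that order overlapped the next. Myb was highest in peripheral CD25- cells (8.83 ± 0.45, n = 3), apart from all others. It was followed by peripheral CD25+ (7.20 ± 0.55, n = 3), mesenteric CD25+ (6.67 ± 0.35, n = 5) and mesenteric CD25- cells (6.57 ± 0.31, n = 3), which overlapped.

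Whether the sort contrast itself differed between pancreas and nodes was tested as the difference of 2 within-set differences. It took Treg minus Teff in IgG-treated pancreas, minus the mean over both node sites of CD25+ minus CD25-. Of the 9 probe sets, 3 passed, all lower, where 2.08% of the array passed and 0.853% passed as lower. With members chosen after earlier results of these data, that count is no independent evidence. Actn1 104578_f_at gave -1.26 (SE 0.29, limma adjusted p = 0.0261), Actn1 104579_r_at -1.17 (SE 0.23, adjusted p = 0.00912) and Lef1 103629_g_at -1.04 (SE 0.21, adjusted p = 0.00979). The brighter Actn1 probe set had given -1.63 in the pancreas, -0.62 in mesenteric and -0.37 in peripheral nodes. Lef1 103629_g_at had given -0.72 in the pancreas, 0.32 in mesenteric and 0.35 in peripheral nodes. Its contrasts thus had opposite signs, and those in the nodes did not pass. Satb1 (-0.54, adjusted p = 0.399), Myb (-1.10, adjusted p = 0.0908) and Lef1 103628_at (-0.19, adjusted p = 0.50) did not pass. With the actin ratio as a covariate, Lef1 103629_g_at was the 1 of 3 still called (adjusted p = 0.0419), and Actn1 104578_f_at gave -1.05 (adjusted p = 0.206) and 104579_r_at -1.22 (adjusted p = 0.0508). Actn1 104578_f_at also missed the threshold without Treg replicate 2, without Teff replicate 5 or without peripheral CD25+ replicate 2 (highest adjusted p 0.0896). Tissue, gate, treatment and processing differ between these sets and cannot be told apart in it.

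The lists were read in that test too, where 2.08% of all probe sets passed. The family of the members gave 3 lower (Klf3 at -2.80, Klf6 at -0.72 and Klf9 at -0.66) and 1 higher (Klf10 at 1.20) of 15. Klf3, a zinc-finger repressor, was lower in pancreatic Treg than Teff and higher in mesenteric CD25+ than CD25- cells, so its contrasts had opposite signs. Of 25 quiescence regulators, Foxp1 (-1.13) passed as lower and Rbl2 (0.90) and Tsc1 (0.51) as higher. Of 10 homing and survival genes, the survival gene Bcl2 (-1.18) passed as lower. Of 11 other naive T cell genes, Cd28 (-1.81), Pou2af1 (-1.33) and Id3 (-1.04) passed as lower. Of 13 effector genes, Ccnd2, a cyclin (-1.51), and Id2 (-1.47) passed as lower and Prdm1 (1.43) as higher. None of 19 TCF-LEF partners and beta-catenin pathway genes or of 8 actinin partners passed.

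Probe sets of the same gene did not always agree. Across 29 arrays, with the duplicated array counted once and each set centred on its own mean, Actn1 104578_f_at and 104579_r_at had r = 0.96, while the 2 Lef1 probe sets had r = 0.38. In the pancreas both Lef1 probe sets were lower in Treg, but in the nodes they had opposite signs. These correlations are across arrays that share groups and sets, and are given as a description. The probe sets of each pair are annotated to the same source sequence, so they are not independent measures.

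**Figure D5:**
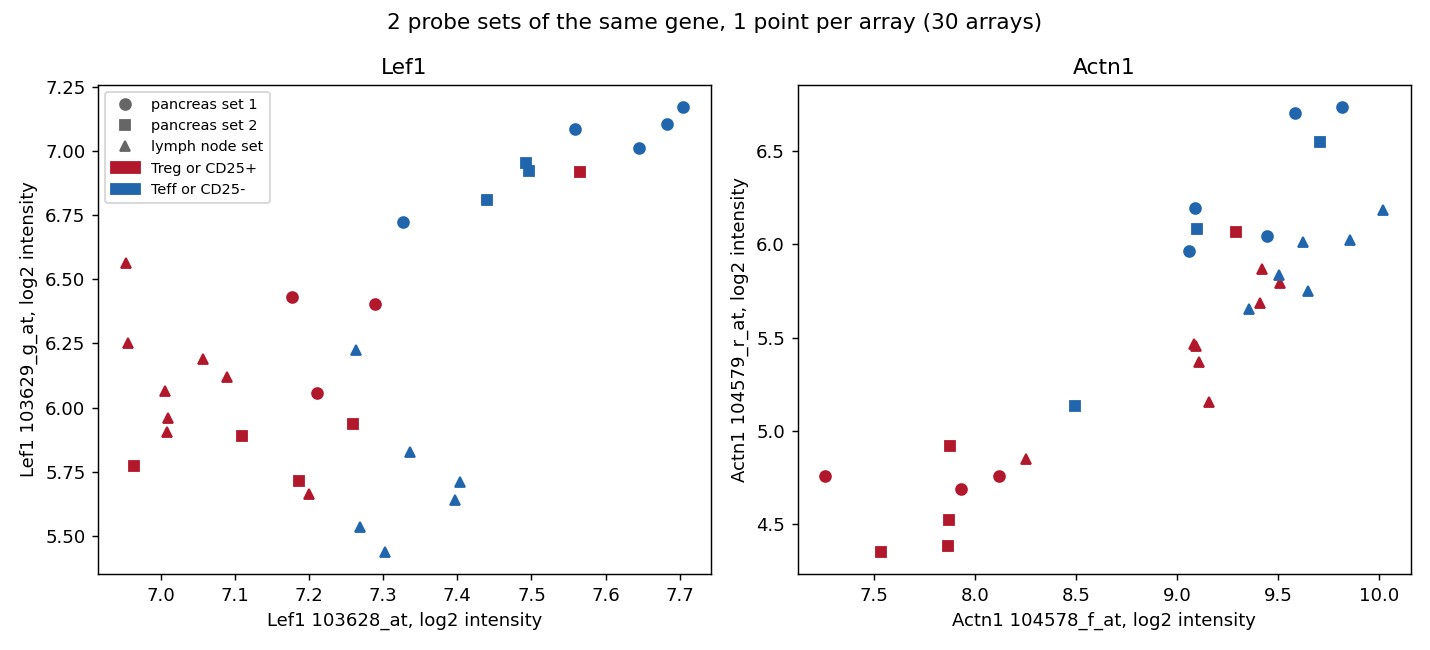
Each point is 1 of the 30 arrays, with the log2 intensity of a gene's brightest probe set on the horizontal axis and of another probe set of that gene on the vertical axis. Colours give the sort and shapes the set. The Actn1 pair rises together (r = 0.96 over 29 arrays, with the duplicated array once and each set centred on its own mean). For Lef1 most CD25- node arrays (blue triangles) lie below most CD25+ node arrays on the vertical axis although they lie to their right.

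Between the genes, and over the same 29 arrays, Satb1 and Lef1 103628_at had r = 0.71, Myb and Actn1 0.70, Satb1 and Myb 0.64, and Lef1 103628_at and Actn1 0.74, all of which contain the sort difference. Klf2 stood outside, with r = 0.21 to Satb1 and -0.36 to Myb. Likeness was read over 3481 probe sets with 1 gene symbol, a mean above the median probe set and enough spread to be compared. The genes most like Satb1 were Evl, an actin regulator of the Ena/VASP family (r = 0.93), the transcription factor Gtf2i (0.91) and the transporter Slc12a7 (0.91). Most like Lef1 were the survival kinase Pim2 (0.90), Tdrp (0.86) and Nsg2 (0.85), and most like Myb were Cyth3 (0.89), the import receptor Ipo5 (0.88) and the cytokine receptor chain Il6st (0.87). Most like Actn1 were the proapoptotic Bcl2l11, known as Bim (0.90), Rreb1 (0.88) and Pou2af1 (0.88). For Klf2 the closest were weaker, with the T cell kinase Prkcq at 0.75 and Usp18 and Socs3 at 0.72.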

How the data were processed

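RNA of sorted CD4+ T cells was measured on 30 one-colour arrays. The authors deposited linear intensity values per probe set. Per the submitters' processing notes, the lymph node set and pancreas set 2 were made with RMA (version not stated). Pancreas set 1 has a normalization not given in the sources used here. Log2 was taken of the deposited values and the 66 control probe sets were left out, leaving 12422. Of these, 10833 name 1 gene symbol, 396 several and 1193 none. Each set was fitted alone by limma 3.58.1 under R 4.3.3 (a two-sided moderated test from eBayes, adjusted by Benjamini-Hochberg over all probe sets at a threshold of 0.05). Only the contrast of pancreas with nodes used a joint fit, after quantile normalization of both sets together, with the mean over both node sites as comparator. Differences are on the log2 scale with standard errors. The brightest probe set on average stands for a gene, and the others are given beside it.

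The members, the gene lists and the markers were chosen with earlier results of these data known. All member probe sets are named, as are list genes past the threshold (at most 8 per list and comparison). Likeness was Pearson's r over 29 arrays centred by set. It was taken among probe sets with 1 gene symbol, a mean above the median probe set and an SD of at least 0.2. The fit was tested on simulated data. In pancreas set 2, the 3 anti-ICOS Treg and Teff pairs of equal replicate number had correlated deviations from their group means (r = 0.24 to 0.59). Arrays of unequal number were not compared, so these values cannot show that the numbers mark pairs. No label says what the number marks, and replicates 2 and 3 of Treg and Teff came from different runs. The main fits were unpaired, with the replicate block as an alternative. Alternatives left out each array, used quantile normalization, a filter on dim probe sets, limma with trend and robust settings, the mean over a gene's probe sets, run or replicate as a block, and the actin ratio as covariate. In the lymph node files the controls follow a different row order, so they were matched by name before the actin ratio was taken.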

Additional observations from a re-analysis of the deposited data

Results flagged for a closer look

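Among the 18 groups of member values large enough to be tested for a sample far from the others, 1 was found: Actn1 104578_f_at in mesenteric CD25+ replicate 3, at 8.25 on the log2 scale against 9.08 to 9.41 in the other 4 arrays. Chance gives such a value in about 5% of groups. The same array had the highest Satb1 (7.82) and Il2ra (6.23) values of its group.

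The contrast of regulatory with conventional cells differed between IgG-treated pancreas and lymph nodes, by limma's test of that difference, in 3 probe sets: Lef1 103629_g_at (-1.04), Actn1 104578_f_at (-1.26) and Actn1 104579_r_at (-1.17). Each was more negative in the pancreas. For Actn1 the contrasts were negative in both tissues. For Lef1 103629_g_at the signs were opposite, with -0.72 in the pancreas against 0.32 and 0.35 in mesenteric and peripheral nodes, where neither passed. The other Lef1 probe set gave -0.19 and did not pass.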

How the results depend on the processing

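Directions and calls named here are limited to the settings run. With the actin 3'/5' ratio as a covariate, 1 member probe set was called in IgG-treated pancreas (5 without it), 0 in peripheral nodes (1 without it) and 1 in the contrast of pancreas with nodes (3 without it). In peripheral nodes 2 were called with the filter on dim probe sets, with the run as a block and with the replicate block, the second being Satb1. In mesenteric nodes the replicate block left 1 (Lef1 103628_at gave -0.33, adjusted p = 0.0516 in limma). In the nodes, as in pancreas set 2, the numbers were not shown to pair the arrays. Correlations of arrays with equal number in the nodes ran from -0.138 to 0.508. In pancreas set 2 the replicate block changed no call. Averaging a gene's probe sets gave 4 member genes called in IgG-treated pancreas (3 by the brightest probe set, with Lef1 added), left 1 member gene called in mesenteric nodes (2 by the brightest probe set) and gave 2 in the contrast of pancreas with nodes (1 by the brightest). Leaving out 1 array gave 2 to 4 called in mesenteric and 1 to 2 in peripheral nodes.

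Signs turned only for differences that did not pass. Between anti-ICOS and IgG Treg, Lef1 103628_at gave -0.068 with quantile normalization and -0.019 with the replicate block, Actn1 104578_f_at gave -0.052 with the replicate block, and Klf2 gave 0.10 with the run block. Between anti-ICOS Treg and Teff, Klf2 gave -0.019 with the run block and Myb 0.42 with the actin covariate. Myb gave -0.016 in mesenteric nodes with the run block. Averaged Lef1 gave 0.073 between peripheral sorts and 0.061 between sites in CD25+ cells. When 1 array was left out, Klf2 between anti-ICOS Treg and Teff ran from -0.017 to 0.16. Between anti-ICOS and IgG Treg, the ranges were -0.11 to 0.19 for Lef1 103628_at, -0.17 to 0.43 for Lef1 103629_g_at, -0.13 to 0.027 for Klf2, -0.031 to 2.33 for Myb and -0.16 to 0.71 for Actn1 104578_f_at. Mesenteric Myb ran from -0.067 to 0.24, Actn1 104578_f_at between sites in CD25- cells from -0.21 to 0.056, and Lef1 103629_g_at in the test of the sort difference between sites from -0.18 to 0.15. The cause was not tested in any of these.

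Counts over the whole array moved more. In IgG-treated pancreas 831 probe sets passed, 86 with the actin covariate, 450 without Teff replicate 5 and 471 without Treg replicate 2. In mesenteric nodes 1514 passed, 832 with the replicate block and 743 to 1878 with 1 array left out. In peripheral nodes 955 passed, 267 with the actin covariate and 531 to 1462 with 1 array left out. The contrast of pancreas with nodes gave 258, 56 with the covariate and 160 to 449 with 1 array left out. Between sites in CD25+ cells 9 passed, 5 with the covariate and 2 to 21 with 1 array left out, and in CD25- cells 56, against 36 to 68. The test of the sort difference between sites gave 1, and 2 with the dim filter, with trend and robust settings or with the replicate block. In pancreas set 2, where 0 passed, 15 did between anti-ICOS Treg and Teff with the run block, and 3 between anti-ICOS and IgG Treg. Without IgG Treg replicate 2, 35 passed in that second comparison. Dim probe sets, near the array's background, limit what can be said of the third Actn1 and the second Myb probe set.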
